A study of Rattus norvegicus with 6 samples.

Results

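Rbp4, the plasma carrier of retinol, and 8 other genes of retinoid handling were examined in rat kidney. All probe sets that the array annotation maps to exactly 1 of these 9 gene symbols were taken, which gave 11 probe sets of the 31042 tested. One further probe set, shared by Ttr and other genes, was left out. The genes were Rbp4 and Ttr (plasma carriers), Crabp2 (a cellular carrier), Rdh10, Aldh1a1 and Aldh1a2 (enzymes that make retinoic acid), Cyp26b1 (an enzyme that breaks it down) and Rara and Rarb (receptors).

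Total kidney RNA was measured in 6 male rats with 1 Affymetrix Rat Expression Array 230 2.0 each. The S.LEW(10)x12x2x3x5 congenic group had 3 rats of a congenic strain with a Dahl S background, whose name denotes a segment of Lewis (LEW) chromosome 10, and the control group had 3 Dahl salt-sensitive (S) rats. All 6 were born on 1 day, weaned at 30 days of age, fed a low-salt diet (0.3%) and killed at 53 days of age. Each group is thus 1 strain at 1 age on 1 diet, and both carry the S background.

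The arrays had medians of 7.48 to 7.51 on the log2 scale, and array data have no read depth, so the number of rats limits the precision. Tubule markers were bright in all rats: Umod, the thick ascending limb glycoprotein, lay at 14.62 in each congenic rat and at 14.70 to 14.76 in S rats. The S arrays were less alike than the congenic ones. Slc12a3, the salt cotransporter of the distal convoluted tubule, lay at 12.21 to 12.31 in congenic rats, against 12.42, 9.50 and 11.73 in S rats 1, 2 and 3. Nphs1, the podocyte protein nephrin, lay at 8.27 to 8.47 in congenic rats, against 8.87, 5.67 and 6.90 in S rats 1, 2 and 3. The groups also differed in RNA quality, taken from the array's controls for beta-actin and Gapdh as the signal at the 3′ end minus that at the 5′ end, which grows when RNA is broken. It was 1.12 ± 0.13 in congenic rats and 1.79 ± 0.28 in S rats (log2, SD, n = 3 each), a difference of -0.67. A two-sided exact permutation test gave p = 0.1, and groups of 3 cannot go lower. The largest value, 2.10, was that of S rat 2.

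As background, retinol leaves the liver bound to RBP4, and the complex with transthyretin, the product of Ttr, keeps this small protein from being filtered. RBP4 that is filtered is taken back by megalin in the proximal tubule, and its loss into urine is a marker of tubular dysfunction. Inside cells, RDH10 oxidises retinol to retinaldehyde, the ALDH1A enzymes oxidise retinaldehyde to retinoic acid, CRABP2 carries retinoic acid to the nucleus, receptors of the RAR and RXR families bind it and switch target genes, and CYP26 enzymes break it down.

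The genes were chosen by the values of the comparison reported here: Rbp4 was known to be much lower in the congenic kidney. The differences of the 9 genes are therefore descriptions, given without p-values. A probe set is said to pass where its adjusted p was under 0.05 in limma's fit over all probe sets. Of the 11 probe sets 2 passed, that of Rbp4 lower and the brighter one of Rdh10 higher, beside 6.00% of all probe sets (3.47% higher and 2.53% lower). The groups did not overlap in 5 of the 11, 3 higher and 2 lower in congenic rats, beside 31.2% of all probe sets (12.7% higher and 18.4% lower). The median difference of the 11 was 0.06, and that of all probe sets was -0.02 (log2, congenic minus S). Nothing is read from these counts, because the comparison chose the genes.

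**Figure D1:**
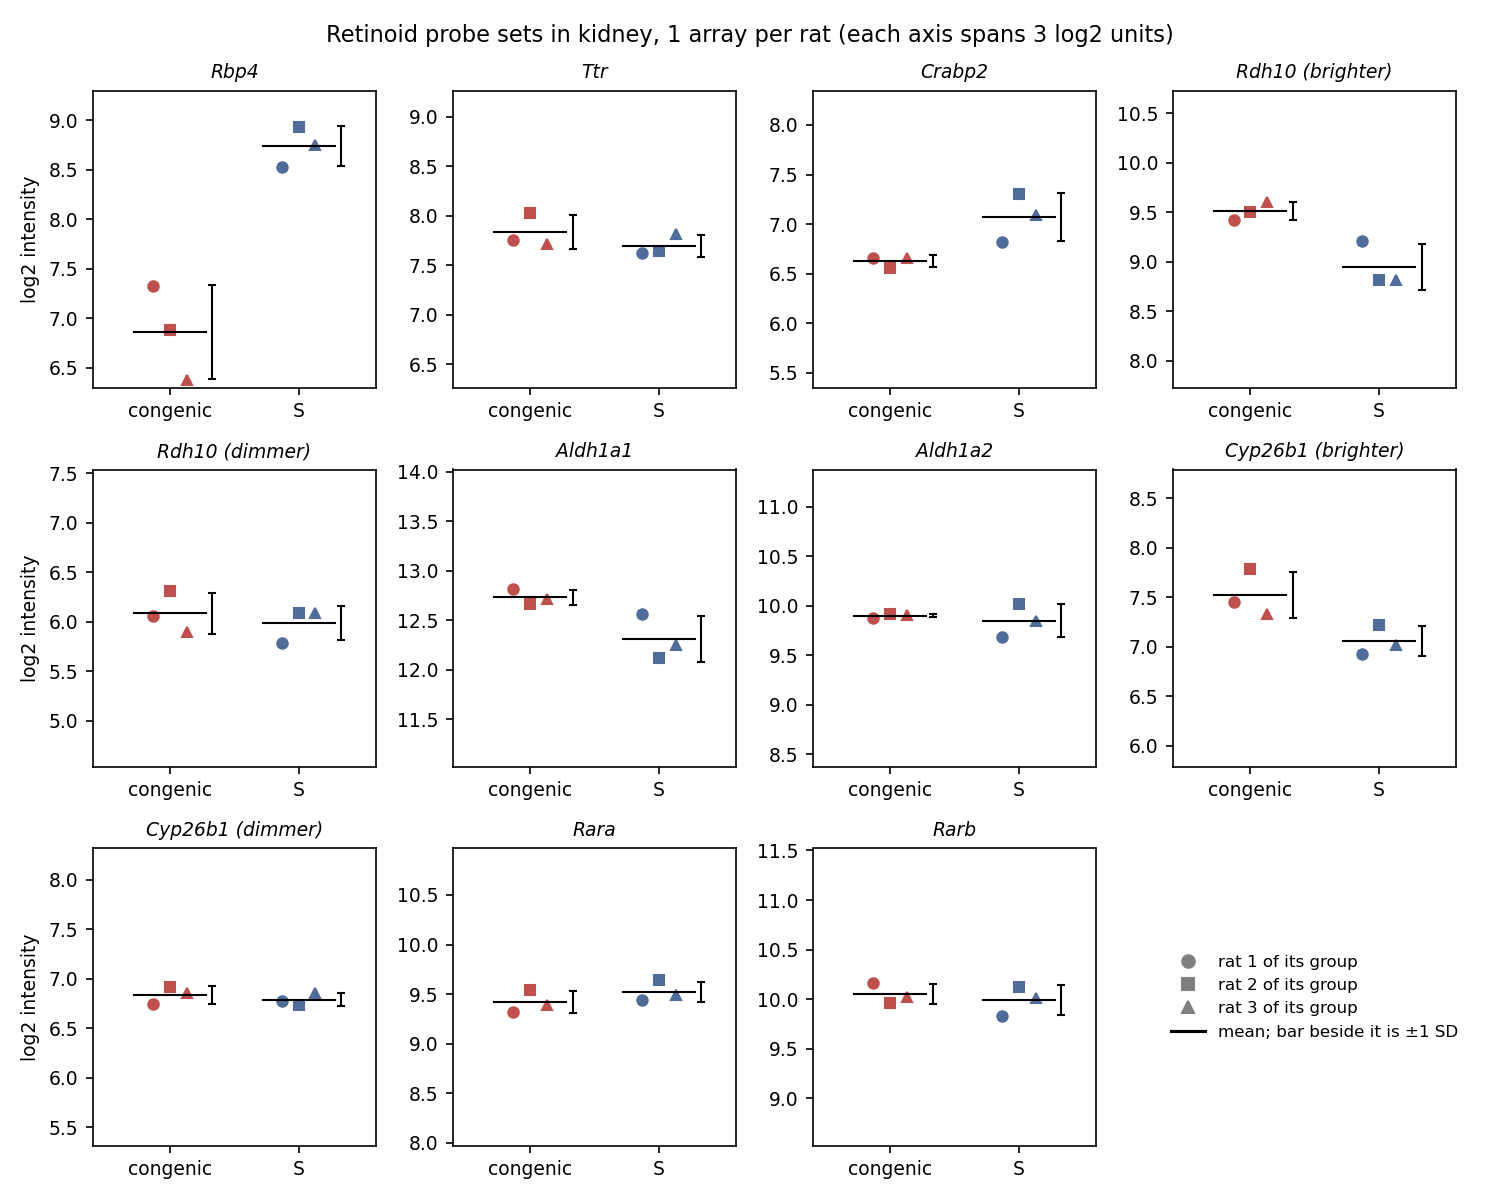
Log2 intensity of each of the 11 probe sets in each rat, congenic on the left and S on the right of each panel, with the group mean (line) and ±1 SD (bar, n = 3). The congenic rats lie at 6.38 to 7.33 for Rbp4, below all S rats (8.53 to 8.93), while the points of Ttr, Aldh1a2, Rara, Rarb and the dimmer probe sets of Rdh10 and Cyp26b1 overlap.

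Rbp4 had 1 probe set (1371762_at). Its log2 intensity was 7.33, 6.88 and 6.38 in congenic rats 1, 2 and 3, against 8.53, 8.93 and 8.75 in S rats 1, 2 and 3. All 3 congenic rats were low and all 3 S rats high, with 1.20 log2 units between the highest congenic and the lowest S rat. The means were 6.86 ± 0.48 in congenic rats and 8.74 ± 0.20 in S rats (SD, n = 3 each), a difference of -1.87 ± 0.21 (SE; 95% interval -2.36 to -1.39), which is 3.67-fold lower in congenic rats. This was the lowest difference of all 31042 probe sets; the next, -1.78, belonged to Lrrc8e, a subunit of volume-regulated anion channels. Rbp4 was also the 1 probe set that lay lower in congenic rats with a gap of at least 1 log2 unit between the groups, while 13 probe sets lay higher with such a gap. Among the values of its own array, Rbp4 fell at percentile 47.6, 40.05 and 32.6 in congenic rats 1, 2 and 3, against 64.3, 69.8 and 68.1 in S rats 1, 2 and 3. The congenic values were thus in the dimmer part of the array, where a fold change is less certain, since no detection call was used.

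The spread within the congenic group was the wider one for Rbp4. Leaving out 1 rat at a time gave differences between -2.11 and -1.63. The probe set passed in 4 of these 6 fits and missed when S rat 3 (-1.87) or congenic rat 2 (-1.88) was dropped. It was the lowest of all in 4 of the 6 fits and second without congenic rat 2 or congenic rat 3. Without S rat 2, the rat with the largest 3′ minus 5′ value, it was -1.78 and passed. S rat 1 had Slc12a3 and Nphs1 values above those of every congenic rat. Its Rbp4 was at 8.53, above all congenic rats and the lowest of the S rats. Its 3′ minus 5′ value was 1.56, against 1.01 to 1.26 in congenic rats. With the RNA quality value as a term in the model the difference was -1.22 ± 0.39 (SE) and did not pass, and Rbp4 stood at rank 28 from the lowest instead of rank 1. The term itself separates the groups, so the share of RNA quality in the difference cannot be told apart from that of strain.

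**Figure D2:**
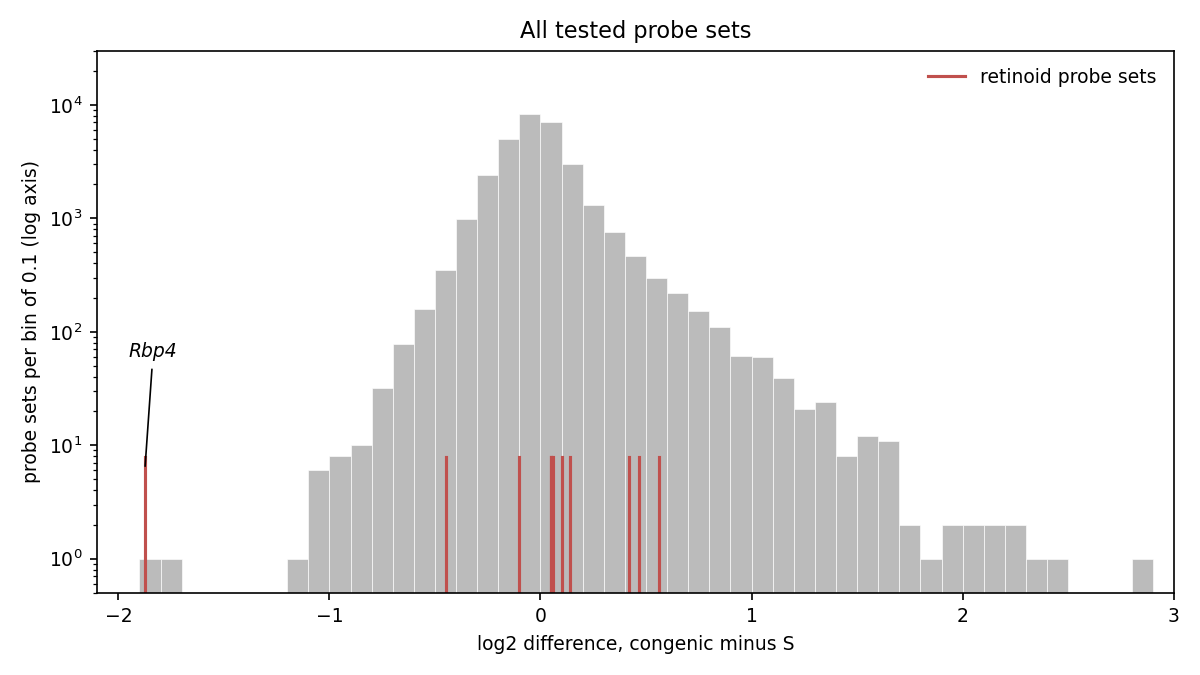
Number of probe sets (log axis) by log2 difference, congenic minus S, in bins of 0.1, with the 11 retinoid probe sets as red lines. Rbp4 at -1.87 stands at the low end of all 31042 probe sets, and the other 10 lie between -0.45 and 0.56.

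Rbp4 is also made by liver and fat, so markers of both were examined. In bulk tissue fewer cells of a type and less RNA per cell cannot be told apart. In these lists each gene stands by its brightest probe set, and rose or fell means that it passed. Of all 14217 genes 4.79% passed in this way. Of 11 measured hepatocyte genes 2 rose and 1 fell, and albumin (Alb) averaged 6.15 in congenic rats and 6.18 in S rats. The summed linear intensity of this list was 1941 to 2080 in congenic rats and 1710 to 1753 in S rats, while the list median difference was -0.03. A sum weighs bright genes most, and Fga, the brightest of the list, averaged 9.80 in congenic rats and 9.20 in S rats. Of 10 measured adipocyte markers 1 fell and 0 rose, and the marker that fell was Cidec, a lipid droplet protein, at -0.61. All 10 markers had a negative difference, from Ucp1 at -1.14 to Lipe at -0.0015. Their summed linear intensity was 5846 to 6803 in congenic rats and 6991 to 9331 in S rats, and the list median was -0.40. Adipoq, which encodes adiponectin, was 8.18, 7.77 and 7.53 in congenic rats 1, 2 and 3, the same order as Rbp4, against 8.08, 8.19 and 8.55 in S rats 1, 2 and 3. The groups overlapped for Adipoq. Ucp1, the uncoupling protein of brown fat, was 9.07, 8.55 and 8.16 in congenic rats 1, 2 and 3, also the order of Rbp4, against 9.47, 9.39 and 10.33 in S rats 1, 2 and 3. Its groups did not overlap, and its difference of -1.14 ± 0.28 (SE, limma adjusted p = 0.0507) was the third lowest of all probe sets. Among S rats Rbp4 was highest in rat 2, while Adipoq and Ucp1 were highest in rat 3. Of the other adipocyte markers, Fabp4 and Cfd had the order of Rbp4 in congenic rats. Cidec, Plin1, Lipe, Lpl, Pnpla2 and Lep did not. With the RNA quality term Ucp1 was at -1.18, Cidec at -0.28 and the adipocyte list median at -0.23. Of 6 urothelium markers 1 fell, the uroplakin gene Upk1a (-0.80), and the list median was -0.47. Both were near 0 with that term, Upk1a at -0.038 and the median at -0.029. Of 8 measured stroma and mesothelium markers 3 rose, and the list median was 0.34. The part of fat, urothelium or stroma in the Rbp4 difference was not tested.

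The Rbp4 gene lies on chromosome 1, outside the chromosome named in the congenic strain. Its promoter window is shown because Rbp4 is the probe set with the lowest difference. The window runs from 250 bases before to 50 bases after the RefSeq start (GRCr8, chr1:245313502-245313801, minus strand, written 5′ to 3′ along the gene). Capitals mark the only TATAAA, the spelling of a TATA box, which begins at base -50 from the start; 14.2% of 33469 RefSeq promoter windows hold that spelling on either strand.
Rbp4: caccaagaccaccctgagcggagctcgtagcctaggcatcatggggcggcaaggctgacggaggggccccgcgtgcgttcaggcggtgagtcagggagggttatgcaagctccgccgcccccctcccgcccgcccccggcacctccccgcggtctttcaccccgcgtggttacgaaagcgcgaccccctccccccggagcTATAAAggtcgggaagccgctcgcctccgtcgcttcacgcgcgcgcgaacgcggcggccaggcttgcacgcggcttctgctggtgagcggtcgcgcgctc
Windows were at hand for 8 of the 9 genes, and there was none for Rdh10. They were searched on both strands for the half-sites of retinoic acid receptors, namely the consensus AGGTCA, a first variant spelled AGTTCA, another variant spelled GGGTCA and a last variant spelled GGTTCA. The Rbp4 window held none of these 4 spellings, which says only that the letters are not in this window.

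Ttr encodes transthyretin, the partner of RBP4 in plasma. Its 1 probe set (1367598_at) was at 7.75, 8.03 and 7.72 in congenic rats 1, 2 and 3, against 7.62, 7.64 and 7.82 in S rats 1, 2 and 3. The groups overlapped. The difference was 0.14 ± 0.10 (SE; 95% interval -0.08 to 0.37).

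Crabp2, the carrier that hands retinoic acid to its nuclear receptors, was the other gene with all congenic rats below all S rats. Its probe set (1370391_at) was at 6.66, 6.56 and 6.66 in congenic rats 1, 2 and 3, against 6.82, 7.31 and 7.09 in S rats 1, 2 and 3. The gap between the groups was 0.16, and S rat 2 was the highest. The difference was -0.45 ± 0.12 (SE; 95% interval -0.71 to -0.18) and did not pass. Without S rat 1 it was -0.57 and passed. With the RNA quality term it was 0.05 ± 0.15 (SE), so the sign turned.

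Rdh10 makes retinaldehyde from retinol, the step before retinoic acid is formed. Its brighter probe set (1384391_at) was at 9.42, 9.50 and 9.60 in congenic rats 1, 2 and 3, against 9.21, 8.81 and 8.82 in S rats 1, 2 and 3. All congenic rats were higher, with a gap of 0.21. The difference was 0.56 ± 0.11 (SE; 1.47-fold) and passed, but of the fits that leave out 1 rat it passed only without S rat 1 (0.69). The other 5 gave 0.49 where S rat 2 or S rat 3 was dropped, and 0.60, 0.56 and 0.51 where congenic rat 1, 2 or 3 was. In the model with the RNA quality term it was 0.19 ± 0.20 (SE). The dimmer probe set (1390079_at), at percentile 27.0 of mean intensity, did not follow it: congenic rats lay at 5.90 to 6.31 and S rats at 5.79 to 6.09, a difference of 0.10 ± 0.12 (SE).

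Aldh1a1 encodes a retinaldehyde dehydrogenase, and its probe set was at percentile 98.4 of mean intensity. It was at 12.81, 12.66 and 12.72 in congenic rats 1, 2 and 3, against 12.57, 12.12 and 12.25 in S rats 1, 2 and 3. All congenic rats were higher, by a gap of 0.09, and S rat 1 was the nearest to them. The difference was 0.42 ± 0.11 (SE; 95% interval 0.16 to 0.68; 1.34-fold) and did not pass. It passed without S rat 1, at 0.55, and with the RNA quality term it was 0.09 ± 0.21 (SE). Aldh1a2, the enzyme that supplies most retinoic acid in the embryo, had overlapping groups. It was at 9.88, 9.92 and 9.90 in congenic rats 1, 2 and 3, against 9.69, 10.02 and 9.85 in S rats 1, 2 and 3. The difference was 0.05 ± 0.09 (SE; 95% interval -0.15 to 0.25). It was 0.35 ± 0.14 (SE) with the RNA quality term.

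Cyp26b1, which oxidises retinoic acid to forms that are cleared, had a pair of probe sets that did not behave alike. The brighter (1384392_at) was at 7.46, 7.79 and 7.33 in congenic rats 1, 2 and 3, against 6.93, 7.22 and 7.02 in S rats 1, 2 and 3. All congenic rats were higher, with a gap of 0.11, and the difference of 0.47 ± 0.13 (SE; 1.38-fold) did not pass. With the RNA quality term it was 0.66 ± 0.26 (SE), above the value without the term. The dimmer one (1376667_at) lay at 6.74 to 6.92 in congenic rats and 6.74 to 6.86 in S rats, a difference of 0.05 ± 0.07 (SE).

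**Figure D3:**
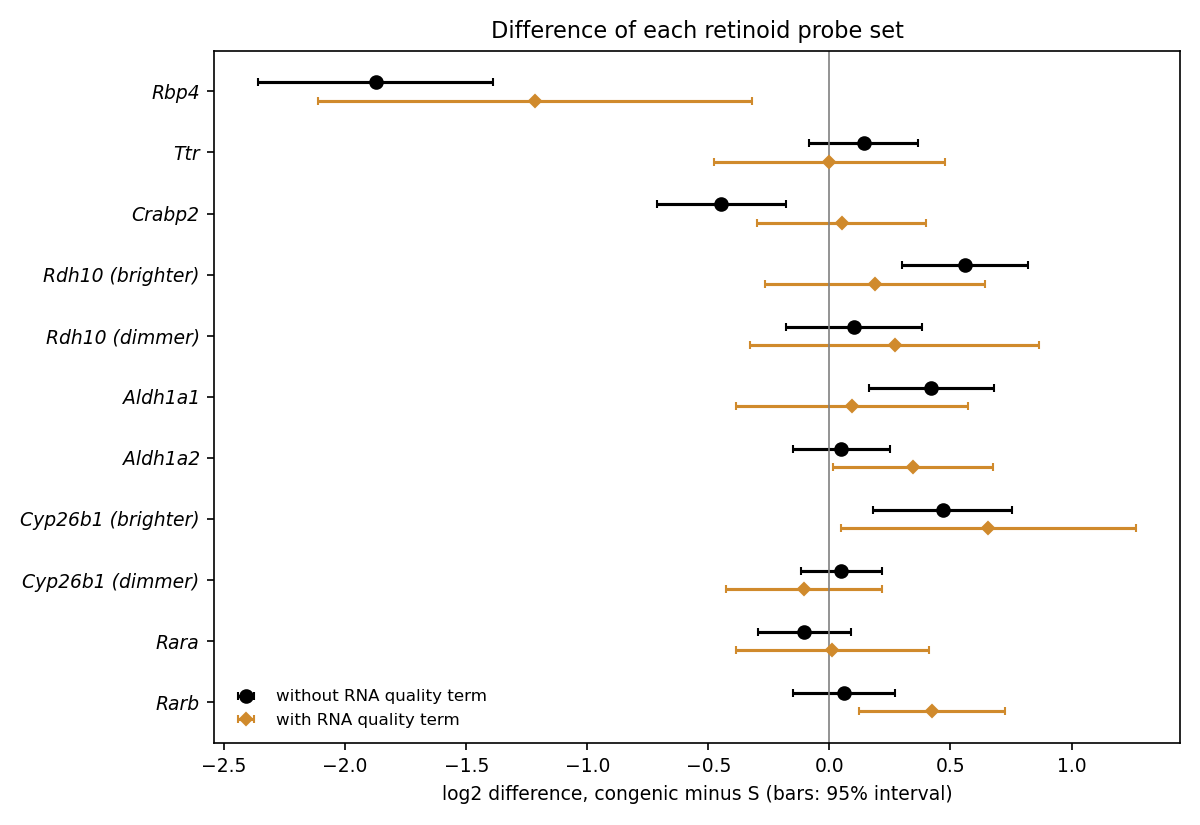
Log2 difference, congenic minus S, of each probe set with its 95% interval, without (black circles) and with (orange diamonds) the RNA quality term. Rbp4 is at -1.87 and -1.22, while Crabp2, Aldh1a1 and the brighter Rdh10 probe set move from -0.45, 0.42 and 0.56 to 0.05, 0.09 and 0.19.

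Both receptors of retinoic acid had overlapping groups. Rara, a receptor gene that lies on chromosome 10, was at 9.32, 9.54 and 9.39 in congenic rats 1, 2 and 3, against 9.44, 9.64 and 9.49 in S rats 1, 2 and 3. The difference was -0.10 ± 0.08 (SE; 95% interval -0.30 to 0.09). Whether Rara is inside the LEW segment was not placed here. Rarb was at 10.16, 9.96 and 10.03 in congenic rats 1, 2 and 3, against 9.83, 10.13 and 10.01 in S rats 1, 2 and 3. The difference was 0.06 ± 0.09 (SE; 95% interval -0.15 to 0.27), and it was 0.42 ± 0.13 (SE) with the RNA quality term.

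Rarb is a textbook target of retinoic acid through a response element at its own promoter, so its window is shown. It covers GRCr8 chr15:11336142-11336441 on the plus strand, cut as for Rbp4. Capitals mark a direct repeat in which the half-site GGTTCA is followed, after 5 further bases, by the half-site AGTTCA. It begins at base 25 after the start.
Rarb: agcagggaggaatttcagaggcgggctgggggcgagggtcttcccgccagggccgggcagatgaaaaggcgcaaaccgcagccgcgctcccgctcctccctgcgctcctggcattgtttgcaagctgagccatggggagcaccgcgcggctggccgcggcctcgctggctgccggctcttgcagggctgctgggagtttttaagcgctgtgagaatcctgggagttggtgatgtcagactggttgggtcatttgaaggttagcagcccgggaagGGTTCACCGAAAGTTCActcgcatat
A direct repeat of the 4 half-site spellings with a spacer of 5 was found in 1 of the 8 windows, that of Rarb, and in 0.382% of all 33469 RefSeq windows. Repeats with a spacer of 1 or 2 were in 0 of the 8, and in 0.233% and 0.170% of all windows. A single half-site was in 4 of the 8 (Aldh1a1, Rara, Rarb and Ttr) and in 44.4% of all windows. A match is a spelling in the reference genome and no measurement of binding.

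Other genes of the pathway were taken from a list of 74 genes in 8 roles, of which 59 had at least 1 probe set, 82 in all. Of these, 7 probe sets of 4 genes rose (Stra6, Tgm2, Dhrs3 and Rxra), 2 probe sets of 2 genes fell (Fabp5 and Hoxb4) and 73 did not pass. That is 10.98% of the list's probe sets beside 6.00% of all probe sets, and the list median was 0.03 beside -0.02. With the brightest probe set of each gene, 3 genes rose and 2 fell of 59, 8.47% beside 4.79% of all 14217 genes. The count of 9 probe sets changed when 1 rat was left out, and so did the count over all probe sets. The list count was 0 when congenic rat 2, congenic rat 3 or S rat 3 was dropped, where limma gave 27, 28 and 30 below an unadjusted p of 0.05. Dropping congenic rat 1 or S rat 2 left 1, and dropping S rat 1 gave 28. When RNA quality was a term, 0 passed, with 10 below an unadjusted p of 0.05.

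**Figure D4:**
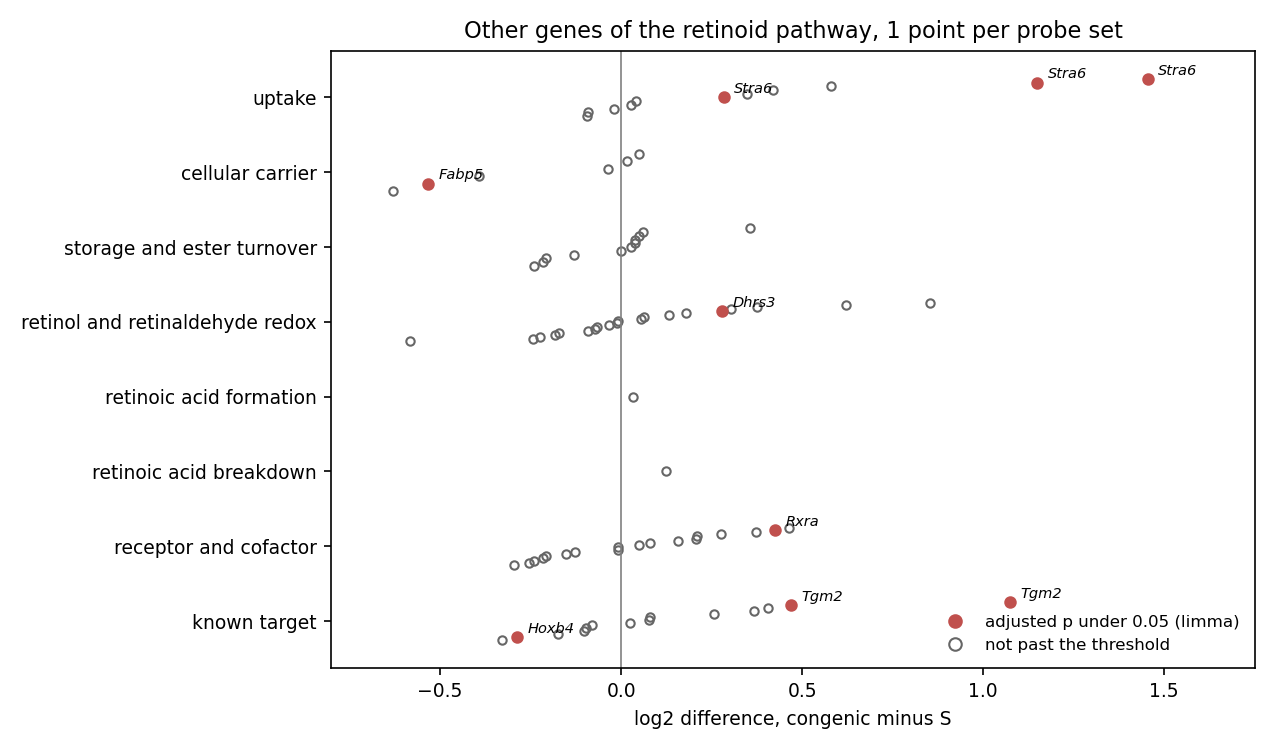
Log2 difference, congenic minus S, of the 82 probe sets of 59 other retinoid genes by role; filled points passed an adjusted p of 0.05 (limma). The 2 probe sets of Stra6 at 1.15 and 1.45 and that of Tgm2 at 1.08 are the largest rises, and Fabp5 at -0.53 and Hoxb4 at -0.29 are the 2 that fell.

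Among uptake genes, Stra6 rose. STRA6 is the membrane receptor that takes retinol from RBP4. Of its 5 probe sets 3 passed. The largest difference (1390525_a_at) had 7.59, 6.66 and 6.90 in congenic rats 1, 2 and 3, against 6.22, 4.97 and 5.59 in S rats 1, 2 and 3. All congenic rats were higher, and the lowest values were those of S rats 2 and 3. This probe set rose by 1.45 ± 0.32 (SE; 2.74-fold, limma adjusted p = 0.0396). It lay at percentile 31.7 of mean intensity, below the limit of the filter on dim probe sets, where a fold change is less certain. A second (1385475_a_at) had 8.68, 7.89 and 7.78 in congenic rats 1, 2 and 3, against 7.45, 6.58 and 6.89 in S rats 1, 2 and 3, and rose by 1.15 ± 0.27 (SE, limma adjusted p = 0.0451). Another (1385476_x_at) rose by 0.28 ± 0.06 (SE, limma adjusted p = 0.0422), with 7.82 to 7.90 in congenic rats and 7.51 to 7.61 in S rats. The brightest (1376962_at) stood at 0.35 (limma adjusted p = 0.0589) and the dimmest (1381606_at), at percentile 16.9, at -0.02. In the annotation's naming the suffix a marks probe sets that can read several transcripts of a gene and x those that can cross-hybridise. In the model with RNA quality the 3 that passed were at 0.71, 0.78 and 0.32, and each lost its call. None of them passed where S rat 2 was dropped, at 1.14, 0.95 and 0.30, nor where S rat 3 or any 1 of the congenic rats was. Quantile normalization ended the call of 1385475_a_at (1.14), and an intensity trend in the fit ended that of 1385476_x_at. Of the 11 uptake probe sets the other 8 did not pass. Lrp2, which encodes megalin, stood at -0.09, Cubn, which encodes cubilin, at 0.04, and Stra6l, a receptor gene related to Stra6, at -0.09. Amn, the partner of cubilin, stood at 0.58 (limma adjusted p = 0.0503) at its dimmer probe set and 0.03 at the brighter. Dab2, the megalin adaptor, stood at 0.42 (limma adjusted p = 0.13).

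**Figure D5:**
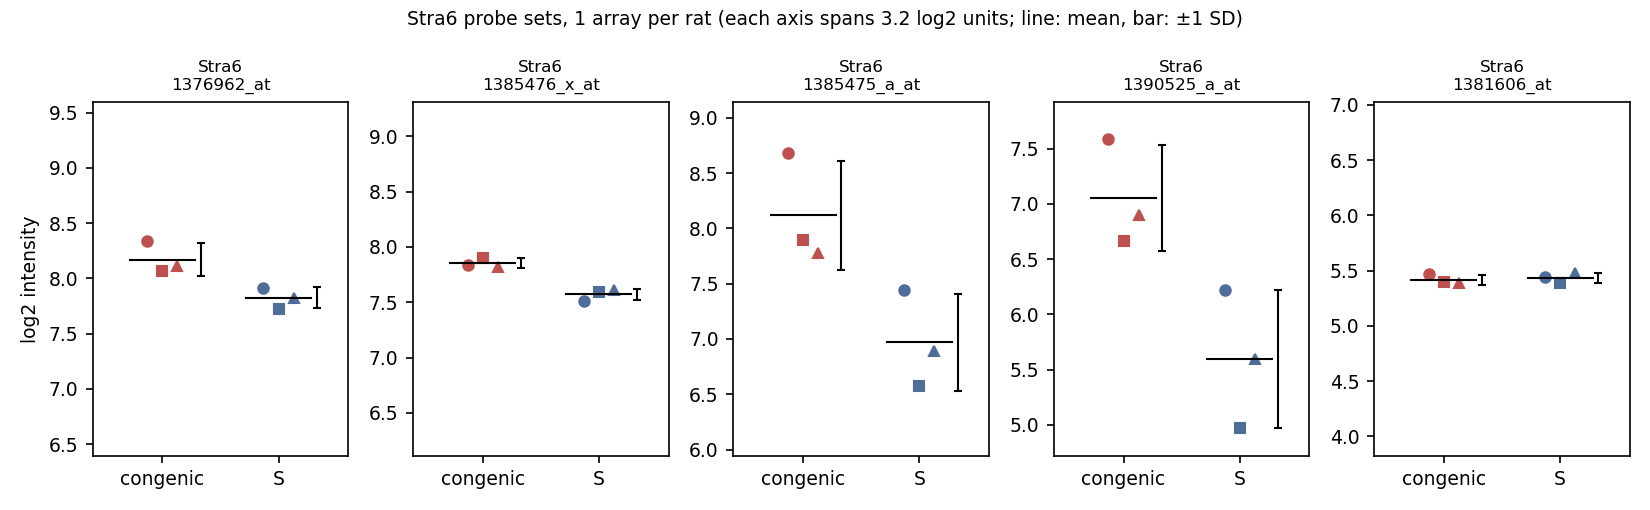
Log2 intensity of the 5 Stra6 probe sets in each rat, congenic left of S, from the brightest to the dimmest, with mean and ±1 SD (n = 3). The congenic rats lie above all S rats in the first 4 panels, and the groups overlap at 5.39 to 5.48 in the last.

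Of 6 cellular carriers with a probe set, Fabp5 fell. It is a fatty acid-binding protein that can also carry retinoic acid, to the receptor encoded by Ppard. It was at 11.38, 11.30 and 11.20 in congenic rats 1, 2 and 3, against 11.60, 12.08 and 11.80 in S rats 1, 2 and 3, with all congenic rats lower. The fall was -0.53 ± 0.12 (SE, limma adjusted p = 0.0409), and the value was -0.0070 with the RNA quality term. Without S rat 2 it was -0.41 and did not pass. Rbp7, a cellular retinol-binding protein gene of fat and endothelium, stood at -0.63 (limma adjusted p = 0.0924), and Crabp1 at -0.39 (limma adjusted p = 0.21).

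Enzymes of retinol and of its esters mostly did not pass. Dhrs3, which reduces retinaldehyde back to retinol and is itself induced by retinoic acid, was at 10.00, 9.95 and 9.98 in congenic rats 1, 2 and 3, against 9.69, 9.72 and 9.67 in S rats 1, 2 and 3. The replicates lay close together, and it rose by 0.28 ± 0.06 (SE, limma adjusted p = 0.0381). Its value was 0.34 with the RNA quality term and 0.27 to 0.29 in the fits that left out 1 rat, although it passed only without S rat 1 among those. It was 1 of 16 measured genes of retinol and retinaldehyde conversion to pass, with Rdh5 at -0.58 (limma adjusted p = 0.0517) and Rdh16 at 0.38 (limma adjusted p = 0.0533). None of 11 probe sets for storage and ester turnover passed by limma. Scarb1, a lipoprotein receptor that also takes up carotenoids, stood at 0.36 (limma adjusted p = 0.0540) at its dimmer probe set and 0.04 at the brighter. Retsat, retinol saturase, stood at -0.22 (limma adjusted p = 0.12) and the carboxylesterase gene Ces1d at -0.24 (limma adjusted p = 0.16). Aldh1a3, another enzyme of retinoic acid synthesis, stood at 0.03, and Cyp26a1, the retinoic acid hydroxylase that responds most to its substrate, at 0.12 (limma adjusted p = 0.34).

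Of 10 receptor and cofactor genes Rxra rose. It encodes the retinoid X receptor that pairs with the RAR proteins. It was at 7.92, 8.06 and 7.98 in congenic rats 1, 2 and 3, against 7.55, 7.37 and 7.76 in S rats 1, 2 and 3. The groups did not overlap, and it rose by 0.43 ± 0.10 (SE, limma adjusted p = 0.0469). It was 0.10 with the RNA quality term and 0.33 without S rat 2, where it did not pass, and quantile normalization also ended the call (0.41). The coactivator gene Ncoa1 stood at -0.30 (limma adjusted p = 0.0655) at the probe set with its smallest p. Its other probe sets stood at -0.26 and -0.0088 and did not pass. Ppard stood at -0.24 (limma adjusted p = 0.0808) at its brighter probe set. Its dimmer one, at percentile 20.1 of mean intensity, went the other way, at 0.28 (limma adjusted p = 0.14), with all congenic rats higher.

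Of 14 probe sets for 10 known targets of retinoic acid, 2 rose (both of Tgm2), 1 fell (Hoxb4) and 11 did not pass. Tgm2, which encodes tissue transglutaminase, rose at both probe sets. The dimmer of them (1387776_at) was at 11.35, 11.60 and 11.71 in congenic rats 1, 2 and 3, against 10.84, 10.14 and 10.45 in S rats 1, 2 and 3, and rose by 1.08 ± 0.17 (SE, 2.11-fold, limma adjusted p = 0.0214). The brighter (1369943_at) rose by 0.47 ± 0.09 (SE, limma adjusted p = 0.0333). They were at 0.28 and 0.17 with the RNA quality term. The dimmer still passed where S rat 1 (1.26), S rat 2 (0.91) or congenic rat 1 (1.18) was dropped, and missed where S rat 3 (1.06), congenic rat 2 (1.05) or congenic rat 3 (0.996) was. Tgm2 also has roles in matrix cross-linking. Of the 8 measured stroma and mesothelium markers 3 rose in the same rats: Lum, Dcn and Col1a1, by 1.76, 0.57 and 0.44. With RNA quality as a term these became 1.25, 0.75 and 0.30. The other 5 did not pass. Of these, Col3a1 stood at 0.23, Pdgfra at 0.009, Msln at -0.27 and Lrrn4 at -0.28. Wt1 stood at 1.05 ± 0.61 (SE), and at -1.78 with the RNA quality term. Its groups overlapped, at 7.62 to 7.94 in congenic rats and 8.10, 5.05 and 6.89 in S rats 1, 2 and 3. The podocyte gene Nphs1 had the same order in S rats. The list median of 0.34 includes Wt1. The part of these markers in the Tgm2 difference was not tested. Hoxb4, a homeobox gene, was at 9.15, 9.19 and 9.16 in congenic rats 1, 2 and 3, against 9.39, 9.46 and 9.52 in S rats 1, 2 and 3. It fell by 0.29 on the log2 scale (limma adjusted p = 0.0417) and was at -0.27 with the RNA quality term. The call ended under quantile normalization (-0.26) and in the fits that left out 1 rat, other than the one without S rat 1. Hoxb4 and Dusp1 lie on chromosome 10, the one named in the congenic strain, and were not placed relative to the LEW segment. Dusp1 stood at 0.37 (limma adjusted p = 0.0618) at its dimmer probe set and at -0.096 at the brighter, where the groups overlapped.

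The probe sets most like Rbp4 over the 6 arrays were sought among 686 named ones whose values spanned at least 1 log2 unit. The arrays fall into both groups, so a high correlation here partly restates the group difference, and it is given as a description. The highest Pearson r values were 0.988 for Id4, an inhibitor of differentiation factors, 0.988 for Fxyd6, a regulator of the sodium pump, 0.974 for Pld1, phospholipase D1, 0.969 for Ppp1r1a, an inhibitor of protein phosphatase 1, 0.967 for Cgref1 and 0.964 for Adgrf1, an adhesion receptor. Fxyd6 was at 11.03, 10.85 and 10.77 in congenic rats 1, 2 and 3, against 11.77, 11.83 and 11.77 in S rats 1, 2 and 3, so it shared the order of Rbp4 within the congenic group. The lowest r values were -0.998 for Opa1, -0.992 for Gatb, -0.991 for Keap1, -0.986 for Aebp1, -0.983 for Gga2 and -0.983 for Cish. Each of these 6 genes has another, brighter or dimmer, probe set that did not pass, with differences between -0.30 and 0.42. Of the 6 genes with the highest r, 4 have other probe sets, the brightest of which stood at -0.39 for Id4 and 0.09 for Adgrf1, where it did not pass, and at -0.30 for Pld1 and -0.43 for Ppp1r1a, where it did. The differences of the 6 with the highest r ran from -0.98 (Cgref1) to -0.72 (Ppp1r1a). With the RNA quality term they ran from -0.74 (Fxyd6) to -0.23 (Ppp1r1a). Those of the 6 with the lowest r ran from 0.77 (Opa1) to 1.30 (Cish), and from 0.36 (Gatb) to 0.86 (Cish) with that term. Opa1, Gatb, Keap1, Aebp1 and Gga2 lay below the array medians in all rats. In all, 33 of the 686 had an r of at least 0.9 and 238 an r of -0.9 or lower. Among the other retinoid probe sets the r to Rbp4 was 0.86 for Crabp2, -0.94 for the brighter Rdh10 and -0.82 for Aldh1a1, and between -0.71 and 0.50 for the rest.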

How the data were processed

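The values the authors deposited are on a log2 scale, as their range and near-equal array medians show; what software made them is not given in the sources used here. As the labels' protocols state, biotinylated cRNA from Trizol-extracted kidney RNA was hybridised to 1 array per rat. Columns were matched by the labels and groups taken from the titles. No pair of arrays was identical, and their correlations were 0.985 to 0.998. Of 31099 probe sets 57 controls were left out; of 31042 tested, 20826 had 1 gene symbol, 436 several and 9780 were not listed. Symbols were updated by Entrez identifier to RefSeq (GRCr8; 20758 matched). The value table names no genome build; promoter windows come from RefSeq GRCr8.

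The fit used limma 3.58.1 under R 4.3.3 (functions lmFit and eBayes, two-sided, Benjamini-Hochberg over all probe sets; 4 residual degrees of freedom, 8.49 with the prior), after a test on simulated data. P-values measure the spread between these rats only. The members, lists, tests and alternatives were chosen with earlier results of these data known. The rule names every member probe set, listed genes that passed and up to 3 per role with the smallest p. It also names the 6 most and least like Rbp4. Lrp2, Cubn, Stra6l, Lrrc8e, the brighter Amn probe set and individual cell markers were named after their values were seen. So were the further probe sets of Ncoa1, Ppard, Dusp1, Scarb1 and Rdh5. Same-numbered rats correlated at -0.01, -0.18 and -0.14 in their deviations from the group means, so the numbers were not taken to pair rats. Figures used matplotlib 3.10.9 in Python 3.11.15.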

Additional observations from a re-analysis of the deposited data

How the results depend on the processing

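As the comparison chose Rbp4, further fits to the same 6 arrays describe its difference and add no evidence for it. Under a filter dropping probe sets below percentile 40 of mean intensity, Rbp4 kept its direction and passed. The same held under quantile normalization, median centring, an intensity trend and array weights (-2.05 with array weights). Rbp4 was at -1.22 with the RNA quality term and -2.11 to -1.63 with 1 rat left out. The 2 retinoid probe sets that passed became 5 with array weights, 0 with the RNA quality term (limma, 4 below an unadjusted p of 0.05) and 0 to 4 with 1 rat left out (5 below an unadjusted p of 0.05 in each). The 9 other retinoid probe sets that passed became 34 with array weights, 0 with the RNA quality term (10 below an unadjusted p of 0.05), 6 under quantile normalization, 5 with 1 probe set per gene and 0 to 28 with 1 rat left out. Over all 31042 probe sets 1862 became 6077, 0 (2292 below an unadjusted p of 0.05) and, with 1 rat left out, 0 to 4752. This count was 0 without congenic rat 2 or S rat 3. A missed call there, or with the RNA quality term, is thus not particular to 1 probe set. In those fits with 1 rat left out, limma gave 5359 to 9319 of all probe sets below an unadjusted p of 0.05. With the rat number as a replicate block Rbp4 stayed at -1.87 and passed, the counts were 2, 4 and 658, Rdh10 lost its call and the brighter Cyp26b1 probe set gained one. With the RNA quality term the sign turned for Crabp1 (0.25), Rdh5 (0.088), Retsat (0.050), Amn (-0.10), Dab2 (-0.30) and Dusp1 (-0.012), and among the 11 probe sets for Crabp2 (0.05), Rara (0.012) and the dimmer Cyp26b1 (-0.11). With 1 rat left out Aldh1a3 ranged over -0.070 to 0.16, Aldh1a2 over -0.031 to 0.13, Rarb over -0.018 to 0.13 and the dimmer Rdh10 over -0.0085 to 0.20. The RNA quality difference itself ranged over -0.78 to -0.51 with 1 rat left out. The causes of these changes were not tested. Dim probe sets, among them Crabp2 and the dimmer ones of Rdh10 and Cyp26b1, were removed by the intensity filter and have no value there.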
